A study of Mus musculus with 2 samples.

Results

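Genes of endoplasmic reticulum (ER) chaperones, of the protein translocon, of ER-associated degradation and of the unfolded protein response were compared between 2 stable clones made from LM8 mouse osteosarcoma cells. The 39 genes were chosen by function, with earlier results of these data known. The reason was that PHD4, the prolyl hydroxylase overexpressed in one of the clones, resides in the ER membrane. The Affymetrix mouse array has probe sets assigned to a single gene for 12393 genes, 38 of the 39 among them; the only annotated probe set of Sec61g is shared with other genes. One clone was stably transfected with a full-length human PHD4 cDNA in pcDNA3.1 (the hPHD4 clone) and the other with empty pcDNA3.1 (the control clone), and both went through G418 selection. Each arm is 1 clone, and 1 array of total RNA was made from each. With 1 array per clone there is no replicate and no test: a difference between the arrays compares these 2 libraries, in which transgene, clone, culture and labelling cannot be told apart. The transgene was not followed, since the array has 0 probe sets assigned to P4htm, the mouse gene of PHD4, alone.

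Proteins that enter the secretory pathway are threaded into the ER through the SEC61 channel, folded by lumenal chaperones, and either exported or, when folding fails, sent back to the cytosol for degradation by the proteasome. An excess of unfolded protein is sensed by IRE1 alpha (Ern1), PERK (Eif2ak3) and ATF6, which raise the transcription of chaperone and degradation genes and lower translation; this is the unfolded protein response. IRE1 acts by splicing the mRNA of the transcription factor gene Xbp1. Cells of the osteoblast lineage depend on this machinery because they secrete large amounts of collagen.

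Values are MAS5 signals, given on the linear scale unless called log2, and a ratio is the log2 signal of the hPHD4 clone minus that of the control clone, averaged over the measured probe sets of a gene. Probe sets were taken as measured above the 40th percentile of its array in both clones (linear signals of 81.1 in the hPHD4 clone against 67.8 in the control clone). Of the 39 genes 36 were measured, by 74 of their 85 probe sets. The median ratio over all 7452 measured genes was 0.03, with 0.13 among the dimmest genes and −0.03 among the brightest when these are split into 3 equal groups by mean signal. The yardstick for a single gene was the disagreement between probe sets of the same gene, an SD of 0.35 over all genes (0.40 in the dimmest group, 0.28 in the brightest); this SD holds probe set error only, with no share from the spread between cultures. All 6 osteoblast markers with a probe set of their own (Sp7, Dlx5, Ibsp, Col1a1, Col1a2 and Alpl) were measured in both clones. Of the markers of other cell types, 0 of 7 epithelial, 3 of 7 leukocyte, 2 of 6 endothelial and 1 of 5 plasma cell genes were.

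The 36 measured ER genes lay close to the control clone as a group, and the difference that stood out was that of Xbp1, 2.31-fold higher in the hPHD4 clone. The median ratio of the 36 genes was 0.12 against 0.03 over all measured genes, and 23 of them (63.9%) lay above 0, against 53.6% of all measured genes. These background values were not matched for signal, and their median ran from 0.13 among the dimmest genes to −0.03 among the brightest. Xbp1 and Syvn1 were higher by 1.5-fold or more, 2 of 36 genes where 8.94% of all measured genes were. Ppib and Sec61b were at least 1.5-fold lower, again 2 of 36, where 5.22% of all were. At 2-fold, 1 ER gene was higher (background 1.89%) and 0 were lower (background 0.98%). These shares are near the background, and 88.9% of the ER genes lay within 1.5-fold, next to 85.8% of all measured genes.

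**Figure D1:**
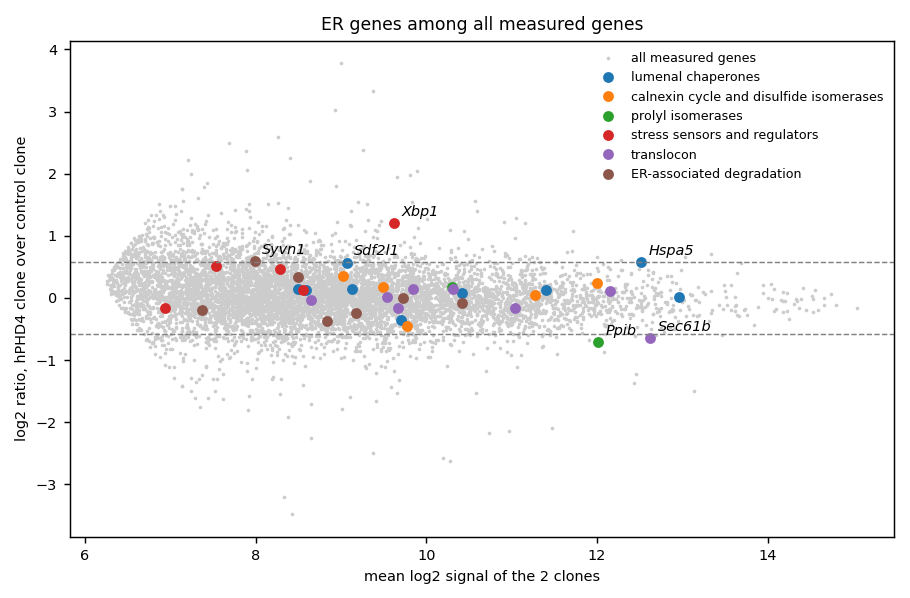
Each grey point is 1 of the 7452 measured genes and each coloured point 1 of the 36 measured ER genes by role; the x axis is the mean log2 signal of the 2 clones, the y axis the log2 ratio (hPHD4 clone over control clone), and dashed lines mark 1.5-fold. Xbp1, at 1.21, lies apart from the other ER genes, which fall between −0.72 and 0.60.

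Some promoters of the ER genes carry a known sequence element. The ER stress element (ERSE) is the site through which ATF6 and XBP1, with the general factor NF-Y, activate chaperone genes. Promoter sequences, from 250 bases before to 50 after the start site, were taken from RefSeq on GRCm38.p6 and were found for 33 of the 39 genes; Atf6, Derl1, Hyou1, Manf, Sec61a1 and Ssr2 had no entry. The ERSE was searched as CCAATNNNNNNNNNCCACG on both strands. It was held by 39 of 32851 promoters (0.119%), which belong to 37 genes, and 9 of these 37 genes were among the ER genes (27.3% of the 33). The first share counts promoters and the second counts genes. The ER genes were chosen by function and include chaperone genes of this response, so a larger share among them follows from the choice. ERSE-II, searched as ATTGGNCCACG, was held by 12 promoters (0.0365%), those of Herpud1 and Dnajb11 among them. The unfolded protein response element (UPRE), searched as TGACGTGG, was held by 222 promoters (0.676%) and by 0 of the ER genes. The letters CGTGG at the end of the UPRE are the reverse complement of the end of both other motifs, so matches could overlap, but no ER gene held more than 1 kind of motif. A match describes the letters of the window and is not evidence of binding.

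The matches are shown so that the site can be read beside the values that follow. Each line is the transcribed strand, 5′ to 3′, with the fixed bases of the motif in capitals. Where the motif is on the opposite strand it reads CGTGG first and ATTGG last.
Hspa5: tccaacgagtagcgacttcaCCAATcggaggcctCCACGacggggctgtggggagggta
Hsp90b1, upstream match: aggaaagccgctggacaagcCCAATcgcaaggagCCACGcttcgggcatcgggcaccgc
Hsp90b1, downstream match: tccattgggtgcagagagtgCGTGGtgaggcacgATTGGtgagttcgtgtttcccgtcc
Calr: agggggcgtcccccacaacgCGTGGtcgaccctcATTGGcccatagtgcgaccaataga
Canx: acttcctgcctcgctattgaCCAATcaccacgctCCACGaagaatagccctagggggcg
Pdia6: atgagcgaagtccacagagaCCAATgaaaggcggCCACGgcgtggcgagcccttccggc
Dnajc3: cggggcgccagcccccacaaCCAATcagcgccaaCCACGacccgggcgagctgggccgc
Creld2: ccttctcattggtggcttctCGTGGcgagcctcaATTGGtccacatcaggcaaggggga
Syvn1: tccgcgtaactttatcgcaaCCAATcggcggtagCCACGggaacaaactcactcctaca
Derl3: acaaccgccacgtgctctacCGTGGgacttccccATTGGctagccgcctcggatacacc
Herpud1, ERSE-II: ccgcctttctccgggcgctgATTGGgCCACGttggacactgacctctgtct
Dnajb11, ERSE-II: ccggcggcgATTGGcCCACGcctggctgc

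On GRCm38.p6 these windows are, on the plus strand, chr2:34772005-34772063 for Hspa5, chr12:17266471-17266529 for Pdia6, chr14:118937807-118937865 for Dnajc3, chr15:88819500-88819558 for Creld2, chr19:6046512-6046570 for Syvn1, chr10:75893222-75893280 for Derl3, chr8:94386357-94386407 for Herpud1 and chr16:22857843-22857871 for Dnajb11. On the minus strand they are chr10:86705618-86705676 and chr10:86705513-86705571 for Hsp90b1, chr8:84847055-84847113 for Calr and chr11:50325780-50325838 for Canx. The motif of Syvn1 ends 26 bases before the start site and that of Hspa5 47 bases before it, while that of Dnajb11 begins 7 bases after it.

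Genes with and without the element had ratios that overlapped. Of the 9 ER genes with an ERSE, 8 were measured, at ratios from −0.35 (Creld2) to 0.60 (Syvn1) with a median of 0.21, and 7 of the 8 lay above 0. With the ERSE-II genes included, 10 were measured, with a median of 0.16 and 8 above 0. The 20 measured genes whose promoter held neither ERSE nor ERSE-II ranged from −0.72 (Ppib) to 1.21 (Xbp1), with a median of 0.03 and 11 above 0. Over all measured genes 53.6% lay above 0. Xbp1, the gene with the largest difference, is in the set with neither element by a search for exact letters only. Whether the element relates to the ratios was not tested.

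Xbp1 encodes the transcription factor whose spliced form drives genes of ER folding, secretion and degradation. Its 4 probe sets had signals of 837, 528, 1927 and 2413 in the hPHD4 clone, and of 495, 150, 758 and 1291 for the same probe sets in the control clone. All 4 were higher in the hPHD4 clone, at log2 ratios of 0.76, 1.82, 1.35 and 0.90, a mean of 1.21. Their SD was 0.48, above the 0.28 of genes of similar brightness, so the probe sets agreed on the sign more than on the size. They read the same RNA of each clone, and so do not show whether the sign would hold in another culture or clone. The lowest of the 4 was still a difference of more than 1.5-fold. Of all measured genes, 65 (0.872%) had a ratio at least as high, and of the 317 genes with at least 4 measured probe sets, 4, Xbp1 included, had every probe set at or above the lowest of Xbp1. Under the 10 other settings of scaling, floor and probe set choice the ratio lay between 0.90 and 1.58. The 10 nearest measured genes on chromosome 11 had a median of 0.12 and ranged from −0.48 to 0.68, all below Xbp1. Splicing of the Xbp1 mRNA was not tested here.

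The 250 bases before the Xbp1 start site (chr11:5520391-5520640, plus strand, GRCm38.p6) are printed because this gene had the largest difference. They hold no exact match of the ERSE, ERSE-II or UPRE, so there are no capitals.
Xbp1: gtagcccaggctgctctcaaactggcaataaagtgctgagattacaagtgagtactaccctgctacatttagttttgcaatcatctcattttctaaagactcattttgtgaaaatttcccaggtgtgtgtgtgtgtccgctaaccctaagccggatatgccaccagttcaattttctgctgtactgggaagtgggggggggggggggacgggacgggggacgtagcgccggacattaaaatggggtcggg

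Ern1, the kinase and nuclease that splices Xbp1, was not measured: its 3 probe sets had signals of 34.9, 3.43 and 70.6 in the hPHD4 clone against 20.5, 15.6 and 32.9 in the control clone, all under the floor. Eif2ak3, which encodes PERK, the kinase that lowers translation by phosphorylating eIF2 alpha, had a signal of 369 in the hPHD4 clone against 266 in the control clone on its 1 measured probe set, a ratio of 0.47. Its other 2 probe sets were at 30.6 or lower. Atf6, the membrane-bound factor released by cleavage in the Golgi, had 222 and 156, a ratio of 0.51. Both ratios exceeded the SD of probe sets of similar brightness (0.37 and 0.40), but each rests on 1 probe set. With the dim probe sets of Eif2ak3 kept, its ratio was 0.16 when they were raised to a common floor and −0.01 with 50 added to each signal. Ppp1r15a, encoding GADD34, which directs a phosphatase to eIF2 alpha, had 393 and 362 (0.12). Wfs1, the Wolfram syndrome protein of the ER membrane, had 116 and 130 (−0.16). The median of the 5 measured genes of this group was 0.47, with 4 of 5 above 0, where 53.6% of all measured genes were. With dim probe sets kept, which brings in Ern1 beside these 5 genes, the median was 0.14. This held whether the dim probe sets were raised to a common floor or 50 was added to each signal.

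**Figure D2:**
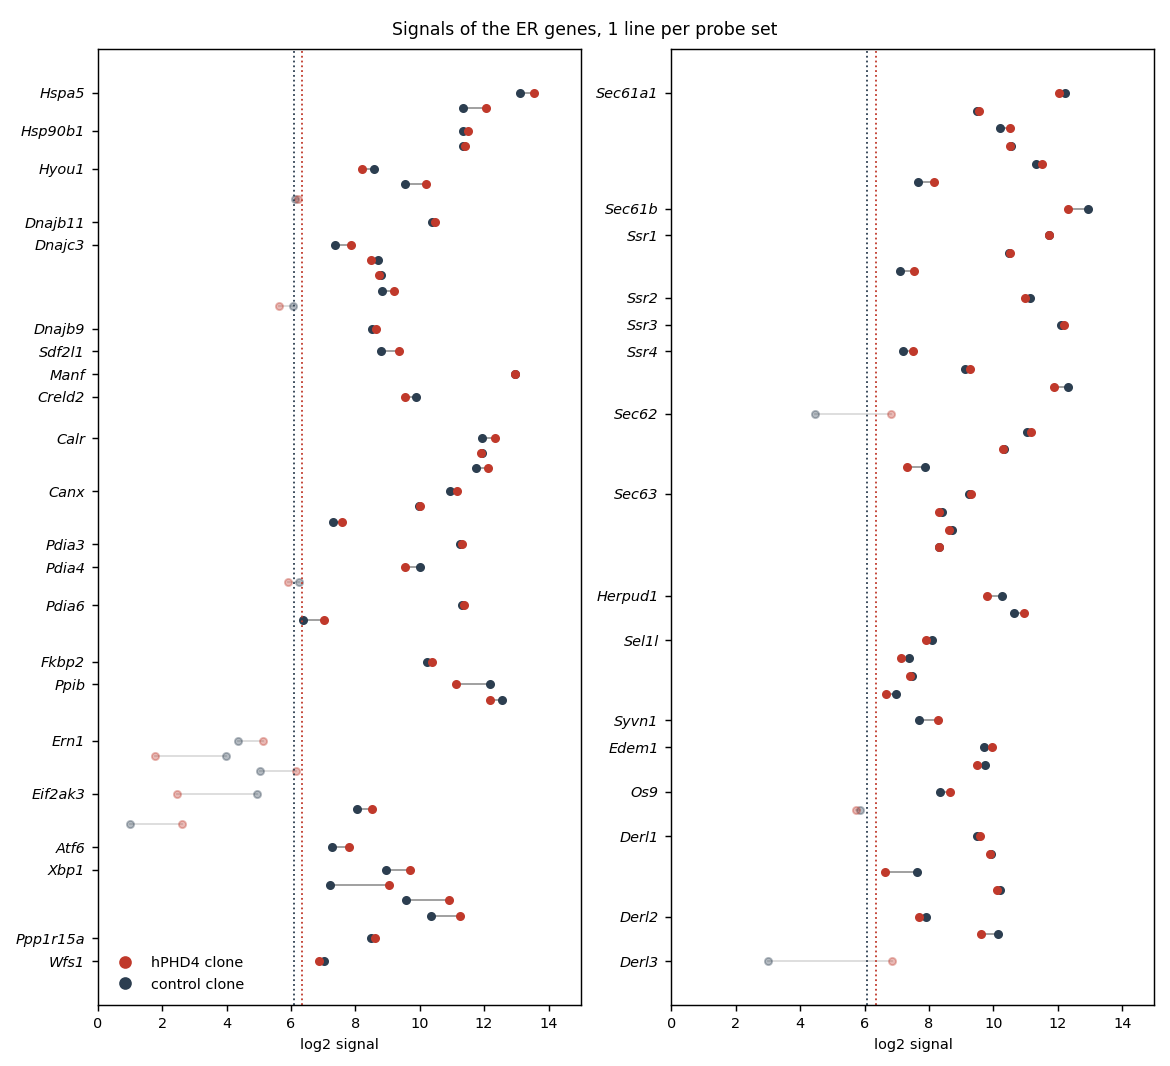
Log2 signal (x axis) of each probe set of the ER genes in the hPHD4 clone (red) and the control clone (dark blue), joined by a line, with the first probe set of each gene beside its name; pale points were not measured and dotted lines are the floors. The 4 probe sets of Xbp1 all have the red point to the right, and Ern1 and Derl3 have no measured probe set.

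Among the lumenal chaperones 8 of 9 genes lay above 0, where 53.6% of all measured genes did, with a median ratio of 0.13. While 85.8% of all measured genes lay within 1.5-fold, 0 of these chaperone genes were past it. Hspa5, encoding BiP, the Hsp70 of the ER and the standard readout of ER stress, came closest. Its probe sets had signals of 12055 and 4288 in the hPHD4 clone against 8864 and 2603 in the control clone, ratios of 0.44 and 0.72 with a mean of 0.58. The mean was above the SD of 0.28 for bright genes. Its 10 nearest measured neighbours on chromosome 2 had a median of 0.26 and reached 0.91. Sdf2l1, which joins the BiP chaperone complex, had 655 and 441 (ratio 0.57, 1 probe set). Both lie so near to 1.5-fold that the scaling decides the call: Hspa5 was past it, at 0.64, with quantile normalization and with the loess correction, and Sdf2l1 after subtraction of chromosome medians (0.60).

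Hsp90b1 (GRP94, the Hsp90 of the ER), whose promoter carries 2 ERSE matches, had ratios of 0.17 and 0.07. The BiP cochaperones Dnajb11, Dnajb9 and Dnajc3 had ratios of 0.08, 0.13 and 0.14; for Dnajc3 the 4 measured probe sets ran from −0.22 to 0.49. Manf, a secreted protein induced by ER stress, had 8003 in the hPHD4 clone against 7930 in the control clone (0.01). Hyou1, the large Hsp70-related chaperone GRP170, averaged 0.14 over probe sets that disagreed, at −0.37 and 0.66; the brighter of them, read alone, is past 1.5-fold. Creld2, an ER stress-inducible protein with an ERSE in its promoter, was the member of this group below 0, at 742 against 945 (−0.35).

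The lectin chaperones and disulfide isomerases were mixed. Calnexin and calreticulin hold newly made glycoproteins until they fold, and Pdia3 (ERp57) works with them to form disulfide bonds. Calr had ratios of 0.43, −0.05 and 0.35 on 3 probe sets (mean 0.24), Canx a mean of 0.18 with all 3 probe sets above 0, and Pdia3 0.04. Pdia6 averaged 0.35, but its bright probe set (2665 and 2561) lay at 0.06 and its dim one (130 and 83.6) at 0.64. Pdia4 (ERp72) lay on the other side, with 752 in the hPHD4 clone against 1023 in the control clone, a ratio of −0.44 against an SD of 0.28. Its second probe set was under the floor in the hPHD4 clone. The median of the 5 genes was 0.18 and 0 were past 1.5-fold, where 85.8% of all measured genes lay within it.

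**Figure D3:**
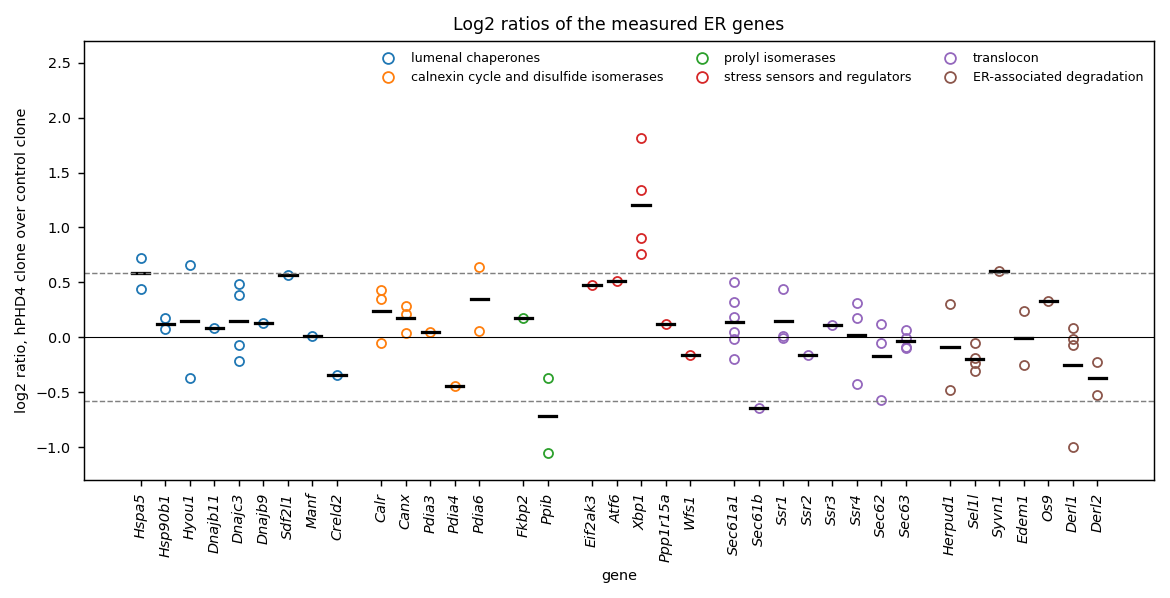
Log2 ratio (hPHD4 clone over control clone, y axis) of the 36 measured ER genes (x axis) by role; each circle is a measured probe set, each bar the mean of a gene, and dashed lines mark 1.5-fold. Xbp1 has all 4 circles above the upper dashed line, and the bars of Ppib and Sec61b lie below the lower one.

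Ppib had the lowest ratio of all the ER genes. It encodes cyclophilin B, a prolyl isomerase that, with prolyl 3-hydroxylase 1 (P3h1) and the cartilage-associated protein (Crtap), forms the complex that modifies and folds collagen chains. Its probe sets had signals of 2255 and 4611 in the hPHD4 clone against 4690 and 5977 in the control clone, ratios of −1.06 and −0.37 with a mean of −0.72 (1.64-fold lower). Both were lower in the hPHD4 clone, and they differed by an SD of 0.48 against 0.28 for bright genes. The lower value came from an _x_at probe set, a type that can hybridise with related sequences, and without such probe sets the ratio was −0.37. The other genes of that complex also had ratios below 0. P3h1 was at −0.69, with 252 in the hPHD4 clone against 406 in the control clone. Crtap was at −0.49 on 1 probe set, with 1910 and 2688. Setting these 3 genes side by side was decided after their values were seen. Fkbp2, a small FK506-binding prolyl isomerase of the ER, had 1344 and 1190 (0.18).

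In the translocon, Sec61b was lower and the remaining genes had ratios between −0.17 and 0.15. Sec61b, the beta subunit of the SEC61 channel, had a signal of 5053 in the hPHD4 clone against 7901 in the control clone on its 1 probe set, a ratio of −0.64 (1.56-fold lower) where the SD was 0.28. After quantile normalization, loess correction or subtraction of chromosome medians it was within 1.5-fold, at −0.55 to −0.58. Its 10 nearest measured neighbours on chromosome 4 had a median of −0.24 and reached −0.68. The pore subunit Sec61a1 averaged 0.14 over 6 probe sets, which ran from −0.20 to 0.51. The gamma subunit, Sec61g, has no probe set of its own and no value. The subunits of the translocon-associated protein complex, Ssr1, Ssr2, Ssr3 and Ssr4, had ratios of 0.15, −0.16, 0.11 and 0.02. The 3 probe sets of Ssr4 ran from −0.43 for the brightest to 0.31 for the dimmest. Sec62 and Sec63, which assist post-translational import, were at −0.17 and −0.03; a further Sec62 probe set, at 114 against 22.2, was under the control floor. Over the 8 measured genes the median was −0.01, with 4 on each side of 0.

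Of the degradation genes, Syvn1 was higher and 5 of 7 lay below 0. The share above 0 was 28.6%, against 53.6% of all measured genes. Syvn1 encodes HRD1, the ubiquitin ligase at the centre of ER-associated degradation, and had a signal of 313 in the hPHD4 clone against 207 in the control clone on its 1 probe set, a ratio of 0.60 (1.51-fold higher) against an SD of 0.40. It was past 1.5-fold under 4 of the 9 alternatives that measured it. It lies on chromosome 19, where the median of 281 measured genes was 0.31 and that of its 10 nearest neighbours 0.46; with the chromosome median subtracted, 1 of the 5 that ended the call, its ratio was 0.29. Sel1l, the adaptor that partners HRD1, was at −0.20, with all 4 probe sets slightly below 0 (−0.30 to −0.06). The HRD1 partners Derl1 and Derl2, membrane proteins of the retrotranslocation channel, were at −0.25 and −0.38. For Derl1 a dim probe set (98.5 against 197) set the mean, while the other 3 lay between −0.07 and 0.09. The 2 probe sets of Derl2 were at −0.23 and −0.52.

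The lectins Os9 and Edem1, which pick out misfolded glycoproteins, were at 0.33 and −0.01. For Os9 this was 1 measured probe set: the other, under the floor, was at −0.14. With a 20th percentile floor the ratio of Os9 was 0.09. The probe sets of Edem1 disagreed, at 0.24 and −0.25. Herpud1, an ER stress-inducible partner of the ligase with an ERSE-II in its promoter, had probe sets at −0.48 and 0.30 and a mean of −0.09. Derl3 was not measured. Its probe set had 115 in the hPHD4 clone, above the floor, and 7.97 in the control clone, far below it, and it was not bright enough for a bound. The median of the 7 measured degradation genes was −0.09.

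Of the 19 ER genes with at least 2 measured probe sets, 8 (42.1%) had all of them on the same side of 0, against 52.7% of all such genes on the array. The pooled SD between probe sets of an ER gene was 0.34, next to 0.35 over all genes. A ratio larger than the SD of genes of similar brightness was found in 11 of 36 ER genes (30.6%), next to 35.5% of all measured genes. These were Xbp1, Syvn1, Hspa5, Sdf2l1, Atf6 and Eif2ak3 on the higher side and Ppib, Sec61b, Pdia4, Derl2 and Creld2 on the lower. The ER genes were bright, with 21 of 36 in the brightest of the 3 groups of all measured genes, where the spread between probe sets is smallest.

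The ratio of Xbp1 can be set beside those of genes known from mouse fibroblasts to need XBP1 for their induction in ER stress. The set read here was Dnajb9, Dnajc3, Dnajb11, Edem1 and Pdia6, named after the values were seen. It is not a full list of XBP1 targets among the ER genes. Syvn1 (0.60), Sdf2l1 (0.57) and Derl2 (−0.38), for example, were not in it. The ratios of the 5 were 0.13, 0.14, 0.08, −0.01 and 0.35, and all 5 lay within 1.5-fold, as did 85.8% of all measured genes. Whether XBP1 targets as a whole differed between the clones was not tested. Xbp1 had the largest ratio of all the measured ER genes. That it lay above these 5 therefore follows from the choice of Xbp1.

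Further genes of the secretory pathway were read from 8 lists of genes outside the 39. Of 102 measured genes, 4 were higher by 1.5-fold or more and 7 lower by as much, where the background shares are 8.94% and 5.22%. The median ratio was −0.07, with 42 (41.2%) above 0 against 53.6% of all measured genes. That background share was not matched for signal, and dim genes had higher ratios than bright ones. In the branch from PERK through ATF4 and CHOP, 1 of 13 genes was past 1.5-fold on the higher side and 0 on the lower, with a median of −0.11. The stress factor gene Atf3 was at 0.74 on 1 probe set, with 118 in the hPHD4 clone against 70.6 in the control clone, close to the floor. The core factors Atf4 and Ddit3 (CHOP) were both at −0.11.

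The background shares of 8.94% higher and 5.22% lower apply to each list that follows. The lists are short, so no list is read as changed from its count. Among other ER stress transducers, 1 of 10 genes was higher and 1 lower. Creb3l2, an ER-bound factor related to ATF6 that promotes secretory cargo export, was at 0.83, with 306 and 172, and Atf6b, the paralogue of Atf6, at −0.71, with 204 and 335. Of 13 further targeting and translocation genes, Srp68, of the signal recognition particle, was higher (0.72) and Spcs3, of the signal peptidase, lower (−0.70). Of 11 glycoprotein folding genes, the glucosidase II gene Ganab was higher (0.62). Of 12 other isomerases and oxidases, Erp44, which retains client proteins in the early secretory pathway, was lower (−0.59). Of 17 genes of ER to Golgi traffic, the KDEL receptor gene Kdelr3 (−0.72) and the coat gene Sec24b (−0.67) were lower and 0 were higher. In the list of 13 further prolyl isomerases and collagen-modifying enzymes, P4ha2, a subunit of collagen prolyl 4-hydroxylase, was lower at −1.11 (2.15-fold, 1 probe set). P3h1 was lower as well, on 2 probe sets. P4ha2 was the 1 gene of the 102 that was 2-fold lower, where the background share is 0.98%. Atf6b, Srp68, Spcs3, Ganab and Kdelr3 also rest on 1 measured probe set each. Of 13 further degradation genes, 0 were past 1.5-fold.

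**Figure D4:**
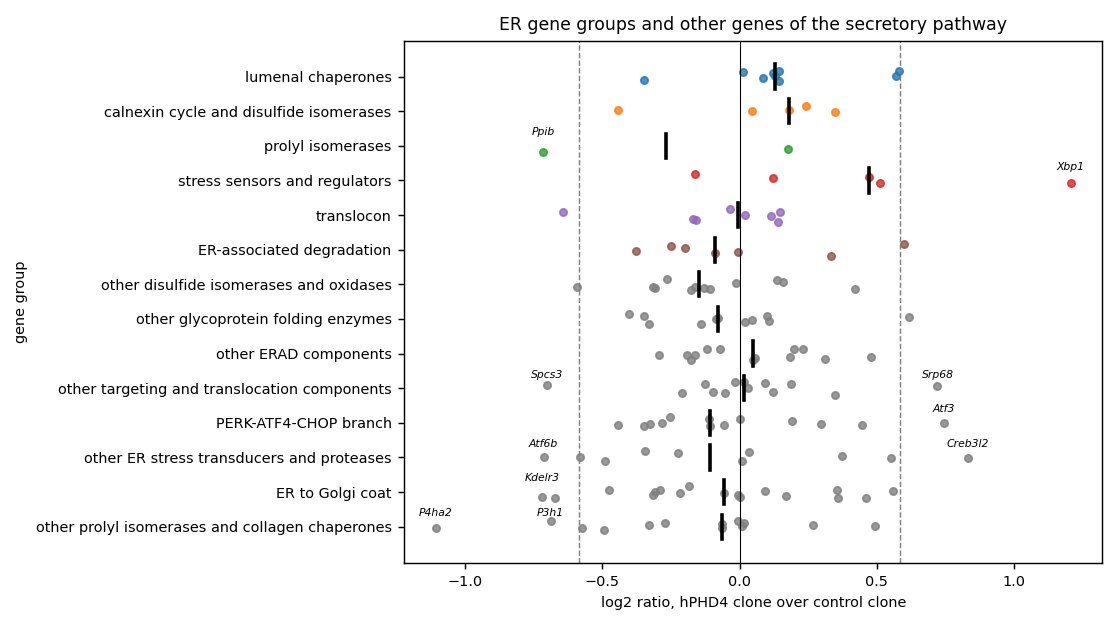
Log2 ratios (x axis) of the measured genes in the 6 role groups of ER genes (coloured) and 8 further lists (grey); each point is a gene, black bars are medians and dashed lines mark 1.5-fold. The group medians lie between −0.27 and 0.47, and Xbp1 and P4ha2 are the points past 2-fold.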

How the data were processed

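RNA of 1 hPHD4 clone and 1 control clone of LM8 cells was hybridised to 1 Affymetrix array each. The authors deposited log2 signals, 1 per probe set; MAS5 is the tool named in the submitters' processing notes, with version and settings not given in the sources used here. Log base and scaling were inferred from the values: as powers of 2 they have a 2% trimmed mean of 500.2 on both arrays. No further scaling was applied. Of 22690 probe sets, 64 were controls; 20380 had 1 gene symbol in the platform annotation, of which 20351 matched the GRCm38.p6 gene table and 0 changed symbol. Probe sets with several symbols were not used. The floor was the 40th percentile of each array and a bound needed a signal above the 75th; no ER gene met the rule for a bound. The ER genes and lists were chosen with earlier results of these data known. The text names all 39 ER genes and, of the further lists, up to 4 genes per list past 1.5-fold (log2 0.58); Atf4, Ddit3 and Crtap were named after their values were seen. Proteins were not analysed here. The gene values were tested on simulated arrays with noise of equal size at all signals, under every setting but subtraction of chromosome medians. Only the ERSE search was tested on planted sequences. Python 3.11.15, pandas 2.3.3 and statsmodels 0.14.6 were used. Alternatives changed the scaling (quantile, loess with a span of 0.3, median), the floor, the filter, a pseudocount of 50 and the choice of probe set. The number of arrays limits the precision.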

Additional observations from a re-analysis of the deposited data

How the results depend on the processing

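The results were recomputed under 10 alternatives, of which subtraction of chromosome medians was chosen after seeing the data. The median ratio of the ER genes, 0.12, was 0.044 with a 60th percentile floor and 0.016 after subtraction of chromosome medians; under the other 8 it lay between 0.09 and 0.12. The count of ER genes at least 1.5-fold higher was 1 in place of 2 after subtraction of the median of all genes and at a 60th percentile floor, where Syvn1 is not measured; it was 3 at the 20th percentile floor, with Ern1, and with the brightest probe set, with Hyou1. Which gene joined Xbp1 varied: Syvn1 lost its call also under quantile normalization and loess correction (Hspa5 in its place), log2(signal + 50) (Derl3) and subtraction of chromosome medians (Sdf2l1). The count at least 1.5-fold lower was 1 in place of 2 after quantile normalization, loess correction or subtraction of chromosome medians (Ppib alone), and with the brightest probe set or without _x_at and _s_at probe sets (Sec61b alone). At 2-fold higher the count was 2 with log2(signal + 50), where Derl3 is added, and 0 with the brightest probe set, where Xbp1 is at 0.90. Xbp1 was past 1.5-fold under all 10. Of 357 recomputed ratios of single ER genes 8 moved by more than the SD of 0.35 between probe sets, among them Hyou1 (0.66 with the brightest probe set, −0.37 without _x_at and _s_at) Eif2ak3 (−0.01 with log2(signal + 50)) and Sec62 (0.46 at a 20th percentile floor). The share of all measured genes at least 1.5-fold higher was 16.4% at the 20th percentile floor and 4.71% at the 60th. No paired analysis was possible because each clone has 1 array. With 1 array per clone no setting measures the spread between cultures or clones.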
